A study of Mus musculus with 8 samples.

Results

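Sertoli and Leydig cells are the somatic cells of the testis, and 6 genes that mark them were followed through the H3K4me3 maps of wild-type and H3f3b null testes. Sox9, Wt1 and Gata4 stood for Sertoli cells, and Star, Cyp11a1 and Cyp17a1 for Leydig cells. Gata4 also encodes a factor of Leydig cells, so its window cannot be assigned to Sertoli cells alone. Each gene was represented by a fixed window of the mm9 genome, and its members were the listed H3K4me3 regions that overlapped the window by at least 1 bp. In mm9 the windows ran on chromosome 11 from 112.635 to 112.655 Mb for Sox9, chromosome 2 from 104.955 to 105.02 Mb for Wt1 and chromosome 14 from 63.81 to 63.875 Mb for Gata4. They ran on chromosome 8 from 26.905 to 26.93 Mb for Star, chromosome 9 from 57.85 to 57.882 Mb for Cyp11a1 and chromosome 19 from 46.735 to 46.755 Mb for Cyp17a1. No mm9 gene annotation was used here, so which part of a gene a region covers was not determined. The windows held 5 of the 51628 regions listed over the 4 libraries, which lay at 3 of the 16519 places that remained after overlapping regions were merged. The libraries came from testis tissue of adult C57BL/6 mice labelled H3f3b WT/WT (WT) or, for the mutants, H3f3b null (KO). H3f3b encodes the histone variant H3.3, and every group shared the same strain, tissue and anti-H3K4me3 antibody. There were 2 H3K4me3 libraries per genotype, WT 66 and WT 74 against KO 67 and KO 73, each with its own region list, and the 4 input libraries of the series were not used here. The labels do not state how the null allele was made or whether each number is a separate animal, so the spread between libraries may be technical.

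H3K4me3, histone H3 with 3 methyl groups on lysine 4, sits at the promoters of active genes and at many promoters rich in CG dinucleotides, whether or not these are strongly transcribed. Sertoli cells line the seminiferous tubule and nurse the germ cells, and Leydig cells lie between the tubules and make testosterone. Most cells of an adult testis are germ cells, so a promoter marked only in somatic cells contributes little of the chromatin. In bulk tissue, fewer cells of a type and less mark per cell cannot be told apart.

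The windows counted as Sertoli, Gata4 among them, held weak regions in 3 of the 4 lists. The Leydig windows held none in any list, and neither set followed genotype. The WT 66 list had a region in 1 of the 6 windows (Gata4), the WT 74 list in 1 (Sox9), the KO 67 list in 0 and the KO 73 list in 3 (Sox9, Wt1 and Gata4). Of all merged places, these lists held 84.5%, 87.1%, 62.7% and 74.4%. Over the 3 Sertoli windows, which together span 150000 bp, WT 66 had 1200 bp covered by regions, WT 74 had 501 bp, KO 67 had 0 bp and KO 73 had 2946 bp. KO 73 was thus the highest and KO 67 the lowest of the 4, and the KO values lay on both sides of the WT values. Gata4, which is not particular to Sertoli cells, supplied all 1200 bp of WT 66 and 1113 bp of the KO 73 sum. Over the 77000 bp of the Leydig windows the covered length was 0 bp in each library. None of the 3 marker places was held by all 4 libraries, as 59.0% of all merged places were. None was held by both WT and neither KO library, a pattern of 8.99% of all places, and none by both KO and neither WT library (0.357%). No marker place had both KO covered lengths below both WT lengths, as 41.7% of all places did, or above them, as 3.44% did. All of these counts follow from the presence values above and are not separate results. KO 67 held no marker place, and no marker place was held by both WT libraries.

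**Figure D1:**
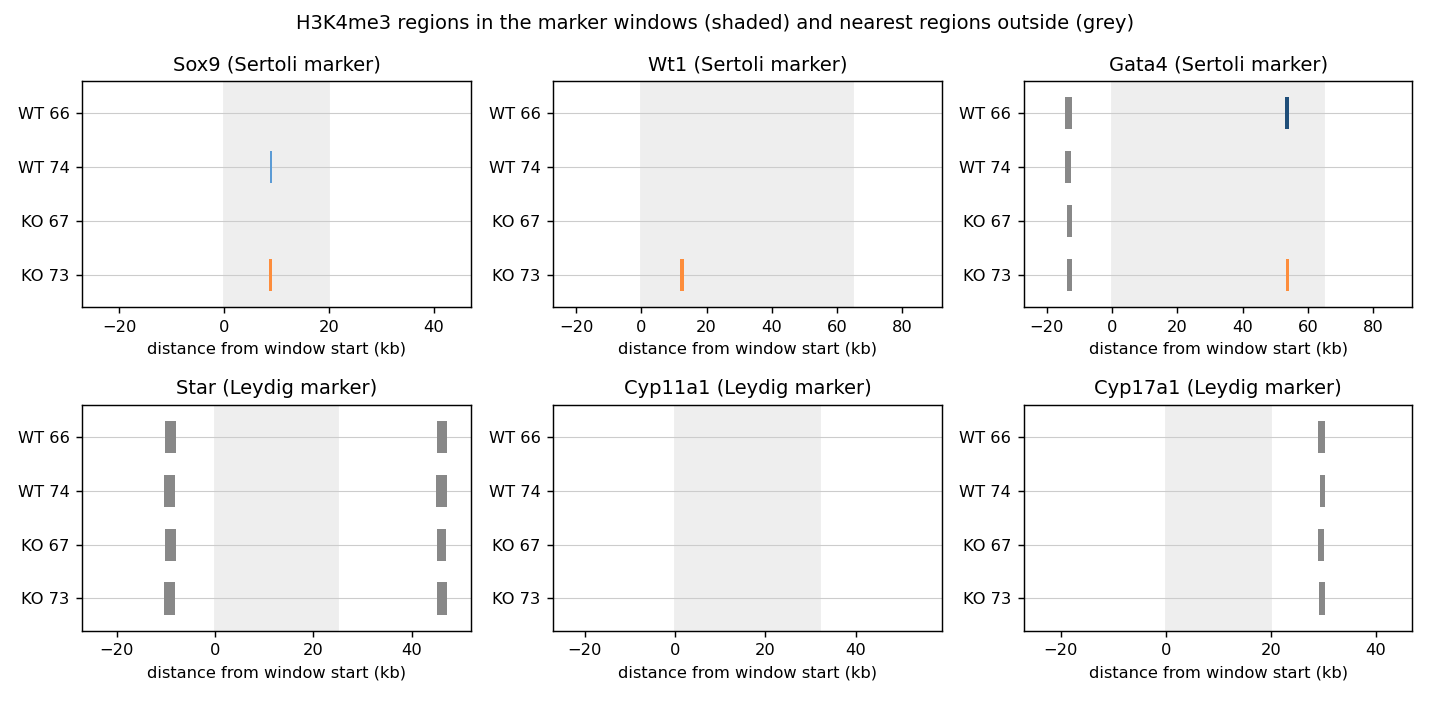
Listed H3K4me3 regions in the window of each marker gene, with the distance from the window's start in kb on the x axis and 1 line per library. Coloured bars are regions inside the shaded window, 5 in all, and grey bars are the nearest regions outside it. The Leydig windows are empty in all 4 libraries, while regions beside the Star and Cyp17a1 windows recur in every library.

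Promoter sequence is shown for the loci that RefSeq's promoter table for GRCm38.p6 holds, to set base composition beside presence of the mark. The table matched 1 of the 6 markers, Cyp11a1, with 2 start sites, and it also holds Wt1os, the antisense RNA gene that borders Wt1, and Tssk1 and Tssk2, kinase genes of spermatids. Tssk2 is described by its values only. Each stretch runs 5′ to 3′ on the gene's strand from 250 bases before the start to 50 after it, and capitals mark CG dinucleotides.
Cyp11a1 start 1: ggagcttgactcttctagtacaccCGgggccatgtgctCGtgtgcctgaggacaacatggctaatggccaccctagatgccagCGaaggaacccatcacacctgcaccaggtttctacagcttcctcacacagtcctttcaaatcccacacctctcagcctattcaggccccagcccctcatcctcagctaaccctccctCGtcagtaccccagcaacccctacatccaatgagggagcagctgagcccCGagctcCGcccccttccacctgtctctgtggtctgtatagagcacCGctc
Cyp11a1 start 2: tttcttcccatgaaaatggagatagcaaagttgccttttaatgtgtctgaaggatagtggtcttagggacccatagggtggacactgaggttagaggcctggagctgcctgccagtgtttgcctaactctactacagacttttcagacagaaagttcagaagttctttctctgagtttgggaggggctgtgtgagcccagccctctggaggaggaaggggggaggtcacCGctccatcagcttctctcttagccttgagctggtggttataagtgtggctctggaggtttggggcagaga
Wt1os: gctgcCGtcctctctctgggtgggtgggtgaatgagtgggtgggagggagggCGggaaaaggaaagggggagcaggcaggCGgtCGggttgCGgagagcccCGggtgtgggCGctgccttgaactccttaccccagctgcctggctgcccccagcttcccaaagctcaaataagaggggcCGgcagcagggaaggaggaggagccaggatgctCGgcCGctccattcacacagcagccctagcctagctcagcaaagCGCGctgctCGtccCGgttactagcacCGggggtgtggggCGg
Tssk1: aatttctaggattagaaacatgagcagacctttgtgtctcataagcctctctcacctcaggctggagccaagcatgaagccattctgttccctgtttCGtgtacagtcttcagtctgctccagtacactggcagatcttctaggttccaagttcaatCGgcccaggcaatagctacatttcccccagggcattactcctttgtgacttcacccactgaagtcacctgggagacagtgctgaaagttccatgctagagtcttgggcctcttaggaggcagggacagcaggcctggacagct
The Cyp11a1 stretches held 7 and 1 CG dinucleotides, and the Wt1os stretch held 16, against a median of 7 over the 32851 promoters of the table. Their GC content was 58.3%, 51.0% and 66.7%, with a median of 52.7% over the table. The Cyp11a1 window was empty in every library, and the Wt1 window held a region in KO 73. The Tssk1 stretch held 2 CG dinucleotides at a GC content of 50.7%, and that of Tssk2 held 6 at 59.7%, and their window was the most covered of the 7 examined. Whether any region lies over one of these starts was not tested, because the table is of another genome build than the lists. Of 4 motifs searched on both strands, only the box CCAAT was found in these stretches, in Cyp11a1 start 1, and 37.4% of all promoters hold it. The others were the box TATAAA (in 13.6% of all promoters), the NR5A1 site CAAGGTCA (in 1.56%) and the motif AGATAA for GATA factors (in 11.2%).

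Gata4 encodes a zinc finger transcription factor of Sertoli and Leydig cells, and its window had a region in WT 66 and in KO 73. WT 66 had 1200 bp covered and KO 73 had 1113 bp, and WT 74 and KO 67 each had 0 bp. Each genotype thus had 1 library with a region of about the same width and 1 without. The pair of WT 66 and KO 73 alone held 1.46% of all merged places. The WT 66 region ran on chromosome 14 from 63862954 to 63864153 and the KO 73 region from 63863214 to 63864326. They shared 940 bp, with the KO 73 edges lying 260 bp and 173 bp further along the chromosome. By the authors' score, the region ranked 10181st from the top of 14078 in WT 66 and 7886th of 12497 in KO 73, at the 27.7th and the 36.9th percentile from the bottom. These ranks come from lists of different lengths and are no measure of change. The WT mean was 600.0 ± 849 bp and the KO mean 556.5 ± 787 bp (SD, n = 2 each), and the difference of -43.5 bp was smaller than either SD (2-sided exact permutation test, p = 1). The smallest p that 2 against 2 libraries allow is 0.33, so no window could pass a threshold of 0.05. Where only 1 library per genotype, or only 1 library in all, has a region, p takes its largest value whatever the widths. That was so at Gata4, Wt1 and Sox9, so their p values follow from presence and do not test a genotype difference.

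Wt1 encodes a zinc finger transcription factor that Sertoli cells need to keep their identity, and its window had a region in KO 73 alone. KO 73 had 1192 bp covered, and WT 66, WT 74 and KO 67 each had 0 bp. The region ran on chromosome 2 from 104966911 to 104968102. Its score of 55.1 equalled that of the Gata4 region of the same list, and it shared the rank of 7886th of 12497. It was stronger and wider than most regions found in KO 73 only. Of the 634 such regions, 3.84% of all merged places, 7 scored at least as high, 9 were at least as wide and 5 were both. The Wt1 region itself is included in each of these counts. Their median width was 501 bp, the narrowest in any list, and their median score rank was the 9.96th percentile of KO 73. The KO mean was 596 ± 843 bp against 0 bp for WT (SD, n = 2 each; 2-sided exact permutation test, p = 1).

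Sox9, the transcription factor gene that directs Sertoli cell fate in the embryonic testis, had the weakest regions of the 3. WT 74 had 501 bp covered and KO 73 had 641 bp, and WT 66 and KO 67 each had 0 bp. Again 1 library of each genotype held a region, but the WT library was WT 74 here and WT 66 at Gata4. The WT 74 region ran on chromosome 11 from 112643693 to 112644193, and the KO 73 region from 112643520 to 112644160. They shared 468 bp. The pair of WT 74 and KO 73 alone held 1.85% of all merged places. The WT 74 region had the smallest width of its list, which 1608 regions (11.1%) had, and it ranked 12818th of 14551 by score. The KO 73 region ranked 10589th of 12497. These are the 11.9th and the 15.3rd percentile from the bottom. The WT mean was 250.5 ± 354 bp and the KO mean 320.5 ± 453 bp (SD, n = 2 each), a difference of 70.0 bp (2-sided exact permutation test, p = 1).

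**Figure D2:**
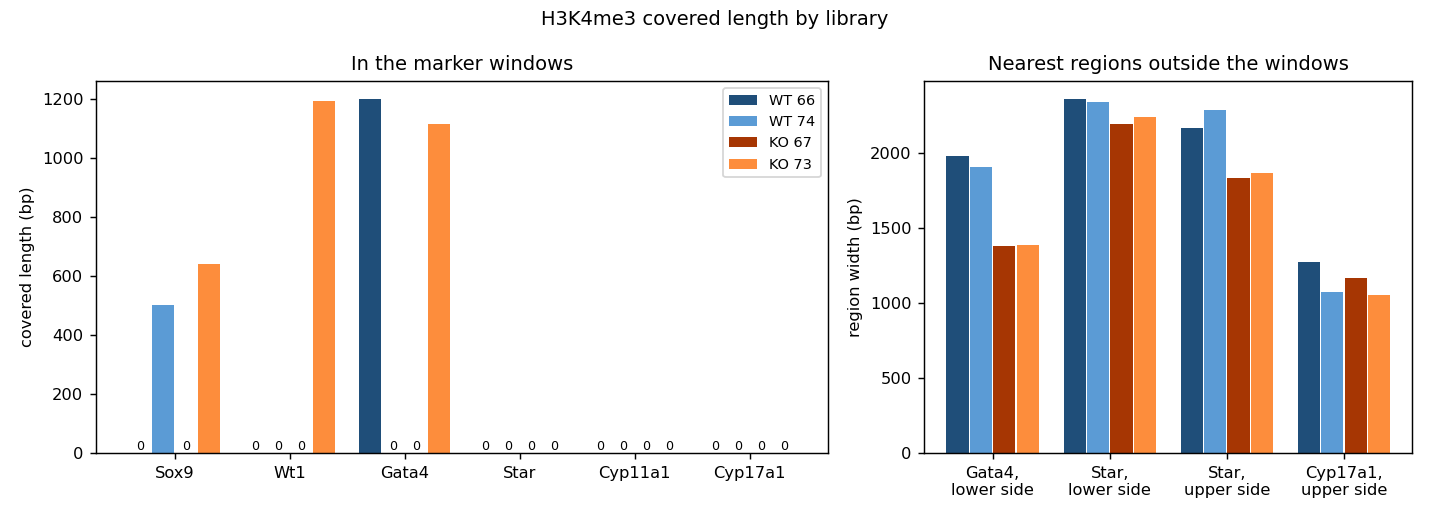
Covered length in bp inside each marker window (left) and width in bp of the nearest region outside 4 window sides (right), with 1 bar per library and both axes starting at 0. The sides shown had a nearest region at most 20.2 kb away in every library. They are part of the 8 sides with a common region. The Wt1 side, where both KO widths lay above both WT widths, is not shown. Sox9 and Gata4 each have 1 WT and 1 KO library at 0, Wt1 has only KO 73 above 0, and the Leydig windows are at 0 in all 4 libraries.

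The Leydig genes encode steps of steroid synthesis. Star carries cholesterol into the mitochondrion, Cyp11a1 cuts its side chain, and Cyp17a1 turns the product towards androgens. Their windows, of 25000, 32000 and 20000 bp, held 0 regions in each of the 4 lists. A region absent from a list fell short of the authors' calling rules, which does not show that the mark was absent. The surroundings of 2 of these windows were marked in every library. Below the Star window, between 7.92 and 8.12 kb away, WT 66 had a region of 2361 bp, WT 74 of 2337 bp, KO 67 of 2194 bp and KO 73 of 2242 bp. It ranked between the 94.1st and the 97.6th percentile of the lists by score. Both KO widths lay below both WT widths, a difference of -131 bp (2-sided exact permutation test, p = 0.33). The same order was seen at 41.7% of all merged places, whether or not all 4 lists held them. Its share among places held by all 4 lists was not determined. Above the Star window, from 19.9 to 20.2 kb away, the WT libraries had widths of 2169 and 2288 bp and the KO libraries of 1833 and 1865 bp, again without overlap (difference -379.5 bp, 2-sided exact permutation test, p = 0.33). In the GRCm38 gene order, Lsm1 precedes Star and Ash2l follows it, but these regions were not assigned to genes.

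Beside the Cyp17a1 window the flanking region did not separate the genotypes. It lay between 9.05 and 9.30 kb above the window and was 1272 bp wide in WT 66 and 1077 bp in WT 74, against 1168 bp for KO 67 and 1053 bp for KO 73 (difference -64.0 bp, 2-sided exact permutation test, p = 0.667). The Cyp11a1 window stood in the emptiest surroundings of the Leydig genes. Its nearest region was 61.2 to 61.4 kb below it in the 4 libraries. Above it the nearest was 66.8 kb away in WT 74 and between 218.8 and 218.9 kb away in the other libraries.

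The Gata4 window also had a neighbour that recurred in every library. From 12.3 to 12.5 kb below the window, WT 66 had a region of 1981 bp, WT 74 of 1904 bp, KO 67 of 1384 bp and KO 73 of 1388 bp. Both KO widths lay below both WT widths, the order seen at 41.7% of all merged places, whether or not all 4 lists held them. The means were 1942.5 ± 54.4 bp for WT and 1386 ± 2.83 bp for KO (SD, n = 2 each; 2-sided exact permutation test, p = 0.33). Within the window itself the KO 73 region was close in width to that of WT 66. The Gata4 gene model of RefSeq GRCm38 spans 72799 bp, more than the 65000 bp of the window, so a start of this gene may lie outside it, and the region below the window was not assigned to a gene. Of the 12 sides of the 6 windows, 8 had a nearest region at the same place in all 4 libraries. In 4 of these both KO widths lay below both WT widths, an order seen at 41.7% of all merged places. That share counts places that some lists lack, and the share among places held by all 4 lists was not determined. Below the Wt1 window the order was the opposite, with 1360 bp in KO 67 and 1307 bp in KO 73. There WT 66 had 1299 bp and WT 74 had 1278 bp (difference 45.0 bp, 2-sided exact permutation test, p = 0.33). That order was seen at 3.44% of all merged places, again whether or not all 4 lists held them. At the remaining sides the widths of the genotypes overlapped.

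The marker regions had scores in the lower parts of their lists, where fewer regions recurred from list to list than at high scores. The regions of each list were put in 10 bins by score, and the share found again in another list was counted, with 95% exact (Clopper-Pearson) intervals that cover counting error only. For the Sox9 region of WT 74, in the second bin from the bottom, 58.2% (55.8 to 60.5) of like-scored regions were found in WT 66, 24.6% (22.5 to 26.7) in KO 67 and 43.7% (41.4 to 46.2) in KO 73. Sox9 was found in KO 73 and in neither of the others. For the Gata4 region of WT 66, in the third bin, the shares were 87.4% (85.5 to 89.0) in WT 74, 53.7% (51.1 to 56.3) in KO 67 and 65.8% (63.3 to 68.3) in KO 73. Its absence from WT 74 thus put it among the 12.6% of that bin that the other WT library lacked.

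The Wt1 and Gata4 regions of KO 73 fell in the fourth bin, where most regions recurred. Of the 1298 regions there, 95.8% (94.6 to 96.9) were found in WT 66, 95.2% (93.9 to 96.3) in WT 74 and 84.9% (82.8 to 86.8) in KO 67. Wt1 was in none of these lists, and Gata4 was in WT 66 alone. All 3 marker regions of KO 73 were absent from KO 67, as were 18.5% of all merged places of KO 73. Among like-scored regions of KO 73, 60.0% were absent from KO 67 in bin 2, where its Sox9 region fell. In the fourth bin, that of Wt1 and Gata4, 15.1% were absent. The Wt1 region (1192 bp) and the Gata4 regions (1200 bp in WT 66 and 1113 bp in KO 73) were also wider than the median of their bins, which was 992.5 bp in KO 73 and 907 bp in WT 66. The Sox9 regions, at 501 and 641 bp, lay below the medians of 635 and 644 bp.

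**Figure D3:**
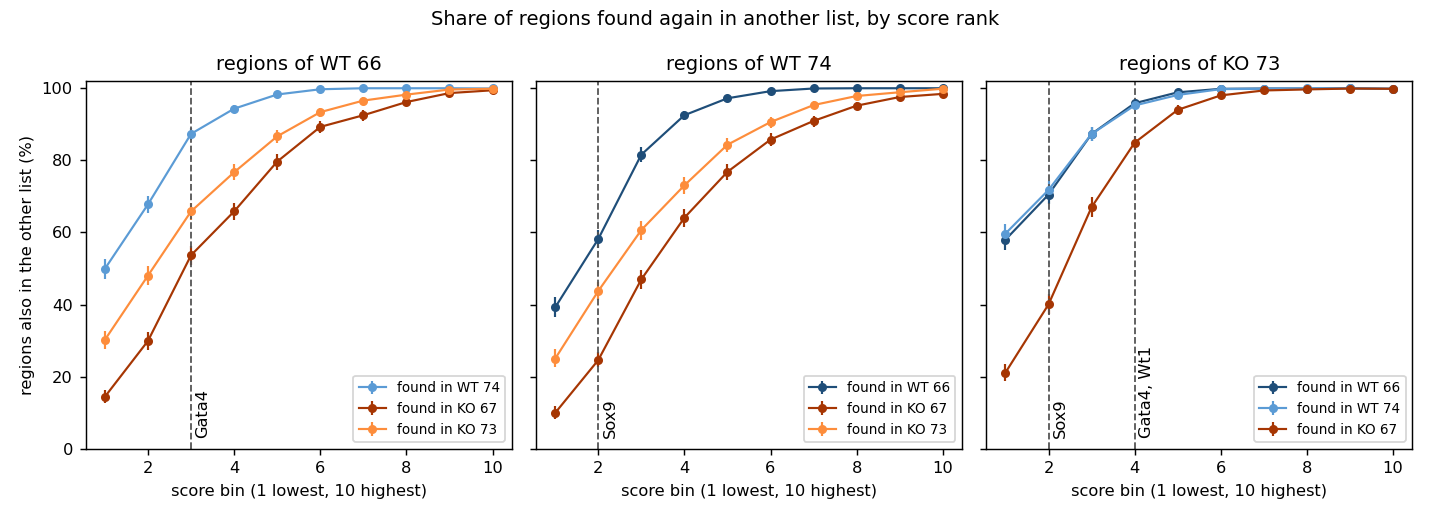
Share in percent of the regions of WT 66, WT 74 and KO 73 that were found again in each other list (y axis), by bin of the list's own score from lowest to highest (x axis). Points are shares with 95% exact intervals, and dashed lines mark the bins of the marker regions. The marker regions fall in bins 2 to 4, where the share found again in KO 67 runs from 24.6% to 84.9%.

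The depth that the scores may show differed between the lists. Scores in a list below 100 were multiples of a step within 0.055: WT 66 had a step of 0.874, WT 74 of 1.39, KO 67 of 0.325 and KO 73 of 1.45. A score placed at random would lie that near a multiple in 33.8% of cases for KO 67. For WT 66, WT 74 and KO 73 it would do so in 12.6%, 7.89% and 7.59%. If a step is 1 sequenced tag, which is not stated, the depth relative to KO 73 was 4.46 in KO 67, 1.66 in WT 66 and 1.04 in WT 74. The libraries with more depth on that reading had fewer or as many marker windows with a region, from 0 in KO 67 to 1 in each WT library and 3 in KO 73, and the part of depth in these counts was not tested. On that reading the Wt1 and the Gata4 region of KO 73 each rested on 38 tags (95% exact Poisson interval 26.9 to 52.2), and the Gata4 region of WT 66 on 52 (38.8 to 68.2). These intervals cover counting error only, since tags without molecular identifiers are not independent molecules. The Sox9 regions rested on 18 (10.7 to 28.4) in WT 74 and 19 (11.4 to 29.7) in KO 73, near the smallest number in these lists, 15 and 14. A score of 55.1 would be 169 steps in KO 67, where the weakest listed region had 62. That comparison holds only if the lists were scaled alike.

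A spermatid locus, the widest domain of the WT lists, was far more covered than any somatic marker. The window of Tssk1 and Tssk2, kinases of late male germ cells, was 58.9% covered in WT 66 and 56.3% in WT 74, and 14.1% and 27.6% in KO 67 and KO 73. No marker window of Sertoli cells was covered by more than 3.21%, the value of Sox9 in KO 73. The Tssk region ranked 6th by score in both WT lists, where the marker regions ranked 10181st (Gata4, WT 66) and 12818th (Sox9, WT 74). In KO 67 it was 1 region of 2812 bp, ranked 1157th, and in KO 73 it was split into 4 regions, of which the highest in score, 2640 bp wide, ranked 1401st. Both KO covered lengths lay below both WT lengths, the order seen at 41.7% of all merged places, whether or not every list held them. The locus was picked for its width, so its values are a description and were not tested.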

How the data were processed

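The authors deposited 1 BED list of H3K4me3 regions per library, without headers. Bowtie, HOMER and mm9 are named per the submitters' processing notes. No version, setting or use of the inputs is given in these sources. Each deposited score has no stated scale. It served to rank regions within a list and, for the possible depth alone, to seek steps and express scores in them. The deposited positions served for covered length, with starts converted to count from 1. The markers, their windows and the tests were chosen with earlier results of these data known, and the windows were not checked against an mm9 annotation. All regions in the 6 windows, and those of Tssk1/Tssk2, were named. Each list was ranked whole. For merged places, overlapping or touching regions on chromosomes 1 to 19, X and Y were joined.

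Covered lengths were compared with 2-sided exact permutation tests over the 6 splits of 4 libraries (Python 3.11.15, pandas 2.3.3, numpy 2.4.6, scipy 1.17.1). A planned fit of region widths, a planned ranking of the markers among places held by all 4 libraries and a search for regions of like pattern were not made, since no marker region was in all 4 lists. Ranks were not tested, since at most 1 library per genotype had one. Steps were sought in scores below 100 with a tolerance of 0.055. Alternatives dropped regions below the 25th percentile of score, held lists to the shortest length (10502), widened windows, used whole regions or left out a library. Gene lists that needed mm9 gene positions were not analysed here, nor was the targeted gene. Gene order and promoters came from RefSeq GRCm38.p6, whose gene table matched all 6 markers.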

Additional observations from a re-analysis of the deposited data

How the results depend on the processing

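No region lay in the Leydig windows in any list. Dropping weak regions, holding lists to one length, counting whole regions or leaving out a library could only keep these windows empty. Those alternatives therefore did not test the absence, and only wider windows could add regions. Windows widened by 10 kb took in parts of the neighbours of Star and Cyp17a1, with KO minus WT differences of -42 and 1 bp. These lengths were cut at the widened edges, and the whole neighbouring regions differed by -131 bp at Star and -64.0 bp at Cyp17a1. Widening by 50 kb was chosen after the data had been seen and took in further neighbours: the difference was -2439.5 bp at Star, -746.5 bp at Cyp17a1, -600.0 bp at Gata4 (from -43.5 bp) and -180.5 bp at Sox9, reversed from 70.0 bp, and the mean number of windows with a region was equal in KO and WT (difference 0.0). With weak regions dropped or lists held to one length, the Sox9 regions left both lists (difference 0.0 bp), which gave 1, 0, 0 and 2 windows with a region in WT 66, WT 74, KO 67 and KO 73. In lists of one length, the percentile of Gata4 in KO 73 exceeded that in WT 66 by 21.9 points, against 9.22 in full lists. That alternative gave no rank for Sox9. Taking the widest region of a window could change no rank, since each marker window held at most 1 region per list. Single libraries set the direction of each difference. Leaving out 1 library, the difference ran from -250.5 to 390.5 bp at Sox9 (negative without WT 66 or KO 73), from 0.0 (without KO 73) to 1192 bp at Wt1, and from -643.5 to 556.5 bp at Gata4 (positive without WT 66 or KO 67). The mean number of windows with a region, 0.5 higher in KO, ran from 1.0 lower (-1.0, without KO 73) to 2.0 higher (without KO 67). No paired analysis was possible because the H3K4me3 libraries of the genotypes share no number. Depth is known only up to the reading of the score steps.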
